A study of Arabidopsis thaliana with 36 samples.

Results

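*FLC*, its MAF relatives and the genes that act around them in the control of flowering time were followed in infected leaves of *Arabidopsis thaliana*: *FLC* (AT5G10140), *MAF1* (AT1G77080), *MAF2* (AT5G65050), *MAF3* (AT5G65060), *MAF4* (AT5G65070), *MAF5* (AT5G65080), *FRI* (AT4G00650), *SVP* (AT2G22540), *FT* (AT1G65480) and *SOC1* (AT2G45660). These 10 genes were chosen by their identifiers from the 33557 genes of the expression tables. The mRNA-seq data cover leaves of the F1 hybrid Fsc (maternal line Sei-0), the reciprocal F1 hybrid Fcs (maternal line Col-0), and the parental accessions Sei-0 and Col-0. All plants were 4 weeks old and grown with 8 h of light per day, and all leaves had been infiltrated with the virulent bacterium *Pseudomonas syringae* pv. tomato (*Pst*) DC3000. Leaves were taken at 1, 2 and 3 days post infiltration (dpi), at least 30 of them pooled for each library, which gives 12 groups of 3 libraries and 36 libraries in all. No leaves without bacteria were analysed here, so every value describes infected tissue, and a hybrid's value pools the transcripts of its Sei-0 and Col-0 alleles.

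*FLC* is a MADS-box protein that holds back flowering by repressing *FT*, the leaf-made protein that moves to the shoot apex, and *SOC1*, a MADS-box activator of flowering. *MAF1* to *MAF5* are the closest relatives of *FLC* and also delay flowering, and *SVP* is a further MADS-box repressor that binds DNA together with *FLC*. *FRI* raises *FLC* transcription, the autonomous pathway lowers it, and long cold shuts it off through Polycomb proteins. Col-0 carries a loss-of-function allele of *FRI*.

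The deposited values are FPKM, a fragment count scaled to transcript length and to the mapped fragments of the library. Each group has 1 value over its 3 libraries, so neither a spread between libraries nor a test of a difference could be had, and the tables hold no fragment counts from which an interval could be computed. Ratios were taken as log2(FPKM + 1), which understates the difference of genes near or under 1 FPKM, and a gene was counted in a comparison when the ratio reached 1.5-fold. Genes had to have a mean FPKM of at least 1 over the 4 groups of a day, which left 17645, 17627 and 17713 genes at 1, 2 and 3 dpi. Of the 10 genes, 9 passed on every day and *FT* on none. The 3 days were normalized as separate tables, so groups were compared within a day only. The tissue was leaf by its markers: *RBCS1A*, a small subunit of Rubisco, had 4916 to 17569.5 FPKM, while the shoot meristem genes *STM*, *WUS* and *CLV3* and the flower identity gene *LFY* were listed at 0 in all 12 groups. In pooled leaves, fewer cells of a type and less RNA per cell cannot be told apart.

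Of the 9 genes, *FLC* and *MAF5* were lower in Fsc and Fcs than in both Sei-0 and Col-0 by at least 1.5-fold at 1 and 3 dpi, and *MAF5* also at 2 dpi. Below both parents lay 5.76%, 2.31% and 6.17% of all genes tested at 1, 2 and 3 dpi, against 2, 1 and 2 of the 9. Above both parents lay 0 of the 9 on each day, against 3.98%, 1.83% and 4.32% of all genes. The median log2 ratio of the hybrid mean to the mid-parent value, the mean of Sei-0 and Col-0, was -0.29, -0.05 and -0.07 over the 9 genes, and -0.01, -0.01 and -0.02 over all genes tested.

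*FLC* lies on chromosome 5 (TAIR10 chr5:3173497-3179448, minus strand) and overlaps no other annotated gene. At 1 dpi it had 1.69 FPKM in Fsc and 2.45 FPKM in Fcs, against 23.2 FPKM in Sei-0 and 9.30 FPKM in Col-0. At 2 dpi the values were 4.998 FPKM in Fsc and 1.75 FPKM in Fcs, against 19.5 FPKM in Sei-0 and 6.31 FPKM in Col-0. At 3 dpi they were 1.25 FPKM in Fsc and 3.56 FPKM in Fcs, against 15.5 FPKM in Sei-0 and 6.80 FPKM in Col-0. Every hybrid value lay under every parental value of its day, and Sei-0 was the highest genotype on all 3 days. At 1 dpi the hybrid nearer to the parents, Fcs, was 2.98-fold below Col-0 on the FPKM + 1 scale, a distance that 50 of the 17645 genes reached, *FLC* included. The same distance was 1.71-fold at 3 dpi, reached by 696 of 17713 genes, and 1.22-fold at 2 dpi, where Fsc was close to Col-0 and *FLC* was not counted as below both parents. Against the mid-parent value, the log2 ratio of the hybrid mean was -2.49, -1.67 and -1.84 at 1, 2 and 3 dpi, and with that reference *FLC* passed 1.5-fold in both hybrids at 2 dpi as well. *FLC* also differed between the parents, with a log2 ratio of Sei-0 over Col-0 of 1.23, 1.48 and 1.08.

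*MAF5* is the last gene of a cluster of MAF genes on the other arm of chromosome 5 (chr5:25997504-26002465, plus strand). At 1 dpi it had 2.17 FPKM in Fsc and 0.986 FPKM in Fcs, against 17.6 FPKM in Sei-0 and 14.0 FPKM in Col-0. At 2 dpi it had 1.18 FPKM in Fsc and 2.70 FPKM in Fcs, against 21.7 FPKM in Sei-0 and 22.8 FPKM in Col-0. At 3 dpi it had 2.37 FPKM in Fsc and 5.37 FPKM in Fcs, against 19.2 FPKM in Sei-0 and 22.6 FPKM in Col-0. The parents were within 1.24-fold of each other on every day, while both hybrids were far under both of them. The hybrid nearer to the parents was 4.73-, 6.12- and 3.17-fold below the lower parent at 1, 2 and 3 dpi. Of the 17645, 17627 and 17713 genes tested, 12, 4 and 91 lay at least as far below, *MAF5* included. The log2 ratio of the hybrid mean to the mid-parent value was -2.70, -2.98 and -2.17.

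**Figure D1:**
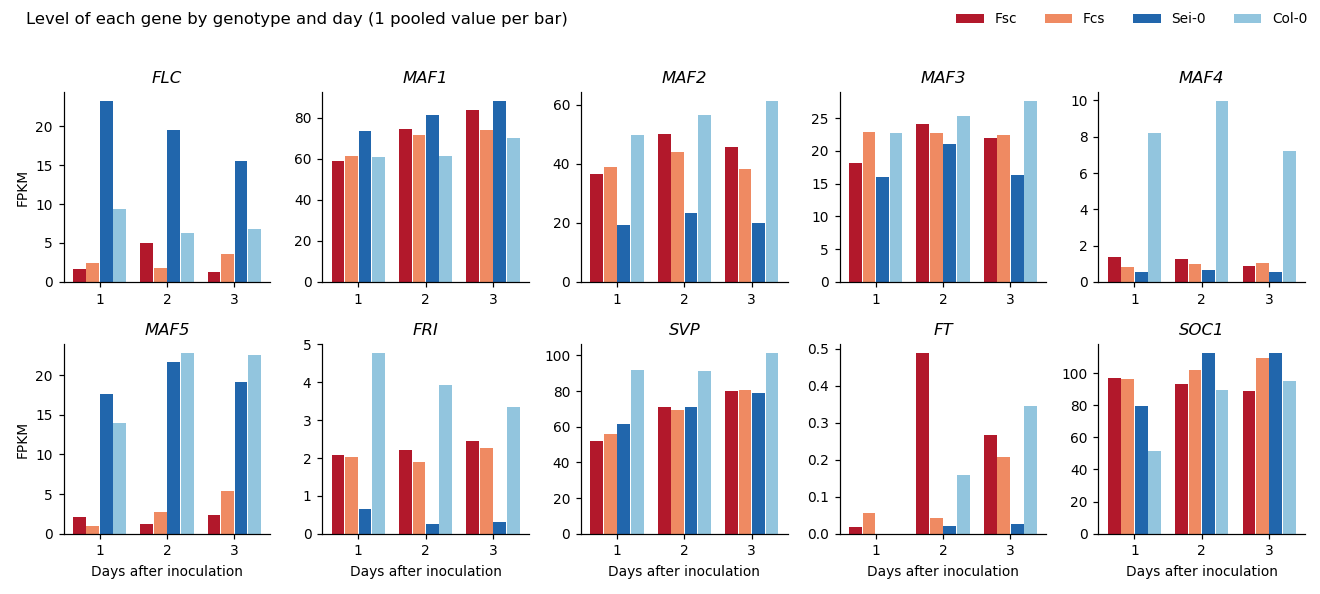
Level in FPKM (vertical axis, from 0, with a scale of its own for each gene) of the 10 genes at 1, 2 and 3 dpi (horizontal axis) in Fsc, Fcs, Sei-0 and Col-0, 1 pooled value of 3 libraries per bar and so without error bars. The hybrid bars of *FLC* (1.25 to 4.998 FPKM) and *MAF5* (0.986 to 5.37 FPKM) lie under both parents on all 3 days, *MAF4* is high in Col-0 only, and *FT* stays at or under 0.488 FPKM.

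The 250 bases upstream of the annotated transcription start of *FLC* and *MAF5* are shown because these are the genes that lay below both parents. They are RefSeq sequence of TAIR10.1, read 5′ to 3′ on the strand of the gene, at chr5:3179449-3179698 (minus strand) for *FLC* and chr5:25997254-25997503 (plus strand) for *MAF5*. Capitals mark matches to the evening element (AAAATATCT), a motif of evening-phased clock genes, and to the G-box (CACGTG), a site of bZIP and bHLH factors, each on either strand.
FLC: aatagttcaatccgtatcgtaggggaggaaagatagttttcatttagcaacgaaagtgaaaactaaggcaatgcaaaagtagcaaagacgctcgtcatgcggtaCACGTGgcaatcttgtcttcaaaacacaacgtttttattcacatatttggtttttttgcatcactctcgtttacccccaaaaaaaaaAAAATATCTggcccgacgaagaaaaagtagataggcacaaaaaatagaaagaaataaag
MAF5: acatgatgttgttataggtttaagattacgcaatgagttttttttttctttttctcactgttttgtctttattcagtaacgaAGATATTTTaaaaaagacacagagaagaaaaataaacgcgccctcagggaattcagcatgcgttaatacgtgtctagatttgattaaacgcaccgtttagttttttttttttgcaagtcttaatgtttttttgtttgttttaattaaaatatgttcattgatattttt
The evening element began 59 bases before the start of *FLC* and, on the opposite strand, 168 bases before the start of *MAF5*, and the G-box 146 bases before the start of *FLC*. The I-box (GATAAG) and the CArG box, the site that MADS-box proteins bind, were searched too and matched neither window. The other 8 windows held none of the 4 motifs. Of 27443 windows of this length, 2.36% held the evening element, 6.49% the G-box, 12.3% the I-box and 2.52% the CArG box. The motifs were picked with the expression values known, and a match describes letters in a window only.

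*MAF4* (chr5:25992243-25996174, plus strand) followed another pattern, with high levels in Col-0 alone. It had 1.37 FPKM in Fsc and 0.807 FPKM in Fcs at 1 dpi, against 0.539 FPKM in Sei-0 and 8.18 FPKM in Col-0. The 2 dpi values were 1.24 FPKM in Fsc and 1.01 FPKM in Fcs, against 0.650 FPKM in Sei-0 and 9.95 FPKM in Col-0. The 3 dpi values were 0.880 FPKM in Fsc and 1.07 FPKM in Fcs, against 0.537 FPKM in Sei-0 and 7.23 FPKM in Col-0. Both hybrids stood between the parents but beside Sei-0: with the FPKM of Sei-0 set to 0% and that of Col-0 to 100%, Fsc stood at 10.8%, 6.3% and 5.1% on the successive days and Fcs at 3.5%, 3.9% and 7.9%. Over all genes counted as lower in Sei-0, the median position was 15.7%, 37.3% and 26.3% in Fsc and 3.90%, 34.7% and 21.8% in Fcs. The log2 ratio of Sei-0 over Col-0 was -2.58, -2.73 and -2.42, a size that 407, 352 and 427 of all genes tested reached or passed at 1, 2 and 3 dpi. Sei-0 reads were aligned to the Col-0 genome, so for *MAF4*, as for the other genes lower in Sei-0, less transcript and poorer alignment of the Sei-0 allele cannot be told apart.

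*MAF2* (chr5:25982254-25986326, plus strand), known for keeping plants from flowering after short cold spells, was lower in Sei-0 than in Col-0 by over 2-fold on each day, with the hybrids in between. It had 36.5 FPKM in Fsc and 38.8 FPKM in Fcs at 1 dpi, against 19.2 FPKM in Sei-0 and 49.8 FPKM in Col-0. Its level at 2 dpi was 50.1 FPKM in Fsc and 44.1 FPKM in Fcs, against 23.2 FPKM in Sei-0 and 56.5 FPKM in Col-0. Its level at 3 dpi was 45.7 FPKM in Fsc and 38.3 FPKM in Fcs, against 19.9 FPKM in Sei-0 and 61.1 FPKM in Col-0. Sei-0 was 2.51-, 2.38- and 2.97-fold lower than Col-0, and the hybrids lay between 44.7% and 80.9% of the way to Col-0, where *MAF4* lay between 3.5% and 10.8%. The hybrid mean was within 0.24 of the mid-parent value on the log2 scale on every day.

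*MAF3* (chr5:25987429-25991315, plus strand) was also lowest in Sei-0, by a smaller margin. At 1 dpi it had 18.1 FPKM in Fsc and 22.9 FPKM in Fcs, against 16.1 FPKM in Sei-0 and 22.8 FPKM in Col-0. For 2 dpi the table gave 24.1 FPKM in Fsc and 22.7 FPKM in Fcs, against 21.03 FPKM in Sei-0 and 25.3 FPKM in Col-0. The table of 3 dpi gave 22.0 FPKM in Fsc and 22.4 FPKM in Fcs, against 16.3 FPKM in Sei-0 and 27.6 FPKM in Col-0, the only day on which the parents differed by 1.5-fold. Over all 12 groups it ranged from 16.1 to 27.6 FPKM. *MAF1*, which lies alone on chromosome 1 (chr1:28955637-28960096, plus strand), ranged from 59.2 to 88.1 FPKM and was past 1.5-fold in no comparison on any day. Its values at 1 dpi were 59.2 FPKM in Fsc and 61.2 FPKM in Fcs, against 73.8 FPKM in Sei-0 and 60.9 FPKM in Col-0. At 2 dpi *MAF1* had 74.7 FPKM in Fsc and 71.5 FPKM in Fcs, against 81.7 FPKM in Sei-0 and 61.4 FPKM in Col-0, and at 3 dpi 83.9 FPKM in Fsc and 74.0 FPKM in Fcs, against 88.1 FPKM in Sei-0 and 70.2 FPKM in Col-0. *MAF1* had the highest level of the 6 MADS-box relatives in every group, and Sei-0 had the highest *MAF1* on each day.

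*MAF1*, *MAF2* and *MAF3* held most of the summed level of *FLC* and *MAF1* to *MAF5*. That sum was 119 FPKM in Fsc and 127 FPKM in Fcs at 1 dpi, against 150 FPKM in Sei-0 and 165 FPKM in Col-0, and *MAF1* to *MAF3* made up 95.6% of it in Fsc and 96.7% in Fcs, against 72.5% in Sei-0 and 80.9% in Col-0. At 3 dpi the sum was 156 FPKM in Fsc and 145 FPKM in Fcs, against 160 FPKM in Sei-0 and 195 FPKM in Col-0. The low levels of *FLC* and *MAF5* in the hybrids thus stood beside levels of *MAF1* to *MAF3* that lay near or between those of the parents.

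**Figure D2:**
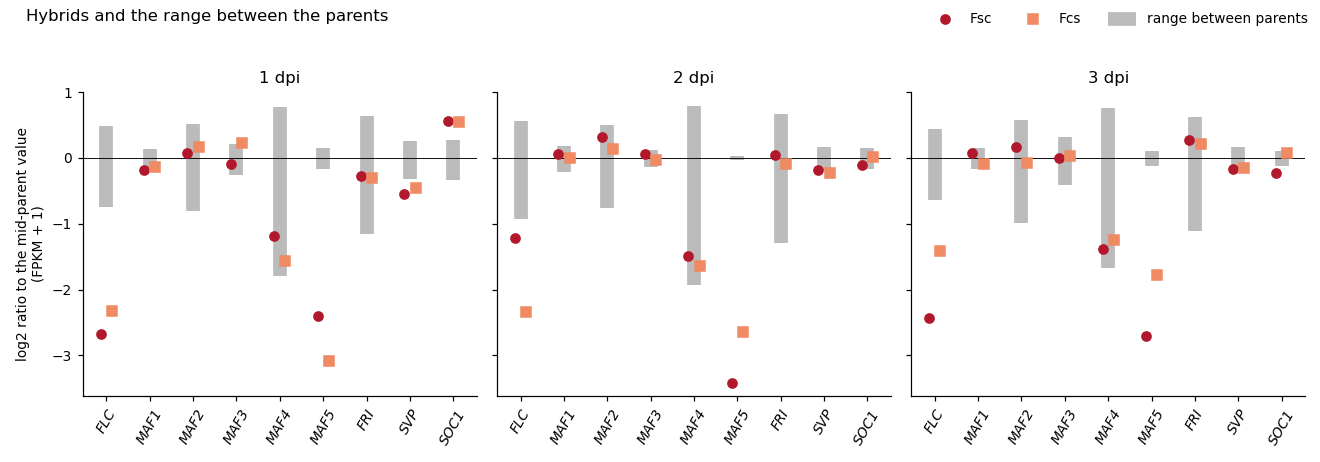
Log2 ratio of Fsc (circles) and Fcs (squares) to the mid-parent value on the FPKM + 1 scale (vertical axis) for the 9 genes that passed the filter (horizontal axis), with 1 panel per day. Grey bars span Sei-0 and Col-0; *FLC* and *MAF5* fall under their bars (hybrid means at -2.49 and -2.70 at 1 dpi), *MAF4* lies near the Sei-0 end of its bar, and *MAF2* and *FRI* lie inside theirs.

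These genes share coding sequence, which bears on how far their values are separate. In RefSeq, *FLC*, *MAF2* and *MAF3* each have a coding sequence of 591 bases in a transcript of 7 exons. By global alignment of RefSeq coding sequences, *MAF2* and *MAF3* were 93.6% identical with a longest shared run of 59 bases, *MAF1* and *MAF3* 89.7% with 61 bases, *MAF1* and *MAF2* 87.3% with 44 bases, and *MAF4* and *MAF5* 84.6% with 43 bases. *FLC* shared 72.3% to 77.7% with the 5 MAF genes and no run over 20 bases. How the authors' counting treated reads that match several genes is not given in the sources used here, so reads of the MAF genes may have been assigned to a relative. Transcripts from the opposite strand of *FLC*, known as COOLAIR, cannot be told apart from *FLC* itself since the counting is not stated to use strand.

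*MAF2* to *MAF5* stand head to tail within 20212 bases, with gaps of 1102, 927 and 1329 bases, and adjacent genes had unlike ratios. The log2 ratio of Sei-0 over Col-0 at 1 dpi was -1.33 for *MAF2*, -0.48 for *MAF3*, -2.58 for *MAF4* and 0.31 for *MAF5* along the chromosome. The log2 ratio of the hybrid mean to the mid-parent value on the same day was 0.12 for *MAF2*, 0.07 for *MAF3*, -1.36 for *MAF4* and -2.70 for *MAF5*. Beyond *MAF5*, *BST1* (AT5G65090), 1551 bases away and required for root hairs, had 6.88 FPKM in Fsc and 5.98 FPKM in Fcs at 1 dpi, against 7.26 FPKM in Sei-0 and 2.11 FPKM in Col-0. *BST1*, which shares its locus in the tables with AT5G65100, was thus not below both parents. On the other side AT5G65030 and AT5G65040 passed the filter on at most 1 day.

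**Figure D3:**
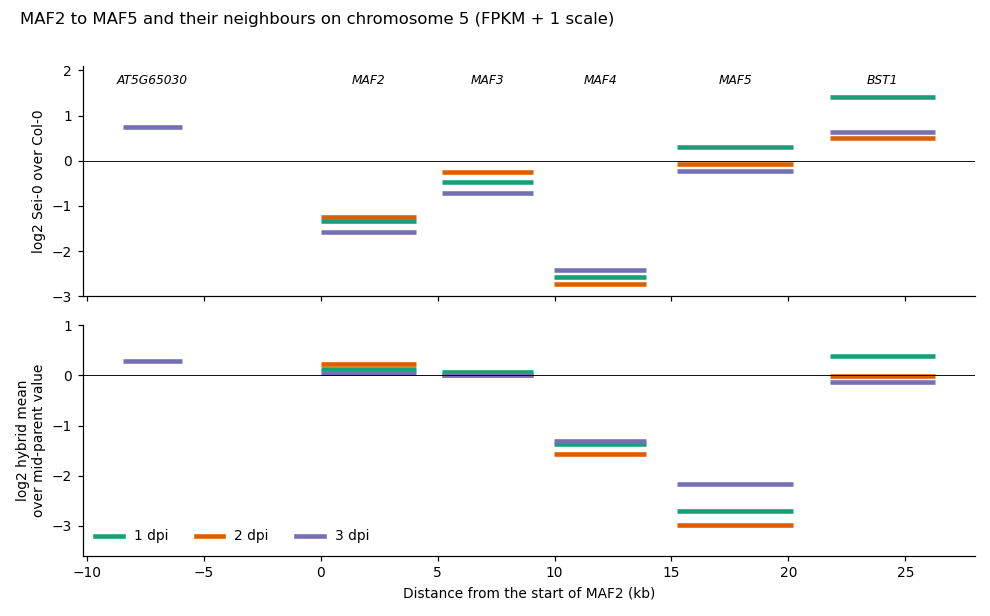
Log2 ratio of Sei-0 over Col-0 (upper panel) and of the hybrid mean over the mid-parent value (lower panel), both on the FPKM + 1 scale, drawn over the extent of each gene as distance from the start of *MAF2* in kb, with 1 coloured line per day. Genes that passed the filter on a day are drawn; *MAF4* has the lowest parental ratios (-2.58, -2.73 and -2.42), *MAF5* has the lowest hybrid ratios (-2.70, -2.98 and -2.17), and *MAF2* and *MAF3* stay near 0 in the lower panel.

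The neighbours of *FLC* were examined likewise. AT5G10150, 2534 bases upstream of *FLC*, had 1.51 FPKM in Fsc and 2.14 FPKM in Fcs at 1 dpi, against 5.87 FPKM in Sei-0 and 11.1 FPKM in Col-0, and so was also below both parents on that day. Its 2 dpi values were 2.54 FPKM in Fsc and 1.91 FPKM in Fcs, against 2.67 FPKM in Sei-0 and 3.90 FPKM in Col-0. Both hybrids were thus under both parents at 2 dpi as well, as for *FLC*, but the gene was not counted. At 3 dpi it had 4.67 FPKM in Fsc and 4.37 FPKM in Fcs, against 3.37 FPKM in Sei-0 and 6.85 FPKM in Col-0, between the parents when *FLC* was not. Its order of the parents was the reverse of that of *FLC*. AT5G10160, the next gene, was counted in no comparison, and AT5G10120 and AT5G10130 on the downstream side of *FLC* did not pass the filter.

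*FRI*, the activator of *FLC*, was low in all groups and the lowest in Sei-0. It had 2.07 FPKM in Fsc and 2.02 FPKM in Fcs at 1 dpi, against 0.664 FPKM in Sei-0 and 4.77 FPKM in Col-0. The table of 2 dpi gave 2.21 FPKM in Fsc and 1.90 FPKM in Fcs, against 0.268 FPKM in Sei-0 and 3.94 FPKM in Col-0. The 3 dpi values were 2.45 FPKM in Fsc and 2.28 FPKM in Fcs, against 0.323 FPKM in Sei-0 and 3.36 FPKM in Col-0. Hybrids lay between the parents on every day, and the genotype with the most *FRI* transcript, Col-0, was not the one with the most *FLC* transcript. The *FRI* allele of Col-0 is the loss-of-function allele named above, so its transcript level does not give *FRI* activity. The part of *FRI* in the *FLC* values was not tested. The locus of *FRI* in the tables (chr4:269026-271879) also holds AT4G00651, so reads of these genes cannot be separated with certainty. Without the genes under a mean of 5 FPKM, *FRI* and *MAF4* leave the count of genes lower in Sei-0.

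*SVP* (chr2:9579874-9583893, plus strand) was highest in Col-0 on each day. It had 52.2 FPKM in Fsc and 55.8 FPKM in Fcs at 1 dpi, against 61.3 FPKM in Sei-0 and 91.6 FPKM in Col-0. At 2 dpi it had 70.9 FPKM in Fsc and 69.3 FPKM in Fcs, against 70.9 FPKM in Sei-0 and 91.2 FPKM in Col-0. Its level at 3 dpi was 80.0 FPKM in Fsc and 80.7 FPKM in Fcs, against 79.1 FPKM in Sei-0 and 101 FPKM in Col-0. At 1 dpi both hybrids were under both parents, Fsc 1.74-fold and Fcs 1.63-fold below Col-0 on the FPKM + 1 scale but within 1.5-fold of Sei-0, so that *SVP* was not counted as below both. Over the 3 days the log2 ratios of the hybrids to Sei-0 lay between -0.23 and 0.03.

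*FT* (chr1:24331428-24333934, plus strand), the mobile signal that *FLC* represses, was close to 0 in these short-day leaves. It had 0.018 FPKM in Fsc and 0.055 FPKM in Fcs at 1 dpi and was listed at 0 in Sei-0 and Col-0. The 2 dpi values were 0.488 FPKM in Fsc and 0.042 FPKM in Fcs, against 0.021 FPKM in Sei-0 and 0.158 FPKM in Col-0. The table of 3 dpi gave 0.267 FPKM in Fsc and 0.208 FPKM in Fcs, against 0.026 FPKM in Sei-0 and 0.345 FPKM in Col-0. These levels are under the filter and were not compared.

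*SOC1* (chr2:18807538-18811047, minus strand) was among the most abundant of the 10 genes. At 1 dpi it had 96.6 FPKM in Fsc and 96.0 FPKM in Fcs, against 79.2 FPKM in Sei-0 and 51.3 FPKM in Col-0. Both hybrids were thus over both parents on that day, by 0.27 on the log2 scale against Sei-0, which is under 1.5-fold. Its level at 2 dpi was 93.1 FPKM in Fsc and 102 FPKM in Fcs, against 112 FPKM in Sei-0 and 89.3 FPKM in Col-0. At 3 dpi it had 88.7 FPKM in Fsc and 109 FPKM in Fcs, against 112 FPKM in Sei-0 and 95.3 FPKM in Col-0. Against Col-0, *SOC1* at 1 dpi was 1.87-fold higher in Fsc and 1.85-fold higher in Fcs on the FPKM + 1 scale. At 2 and 3 dpi both hybrids were within 1.5-fold of both parents. The part of *FLC* in the *SOC1* values was not tested.

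Between the parents, 2, 1 and 1 of the 9 genes were higher in Sei-0 at 1, 2 and 3 dpi, where 14.9%, 11.8% and 10.8% of all genes tested were. These were *FLC* on each day and *SOC1* at 1 dpi. Lower in Sei-0 were 3, 3 and 4 of the 9, against 17.9%, 14.6% and 13% of all genes: *MAF2*, *MAF4* and *FRI* on each day, and *MAF3* at 3 dpi. Between the reciprocal hybrids, 1, 2 and 2 of the 9 differed, against 9.94%, 8.96% and 8.67% of all genes. These were *MAF5* on each day and *FLC* at 2 and 3 dpi, both at low FPKM.

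The reciprocal hybrids did not keep their order. The log2 ratio of Fsc over Fcs over the 3 days was -0.36, 1.13 and -1.02 for *FLC*, and 0.68, -0.76 and -0.92 for *MAF5*. Neither maternal line thus had the higher level of *FLC* or *MAF5* on all days. At 1.5-fold all 3 differences of *MAF5* counted, and with a fold of 2 none did, while *FLC* still counted at 2 and 3 dpi. For the other 7 genes tested the hybrids were within 0.39 of each other on the log2 scale on every day.

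**Figure D4:**
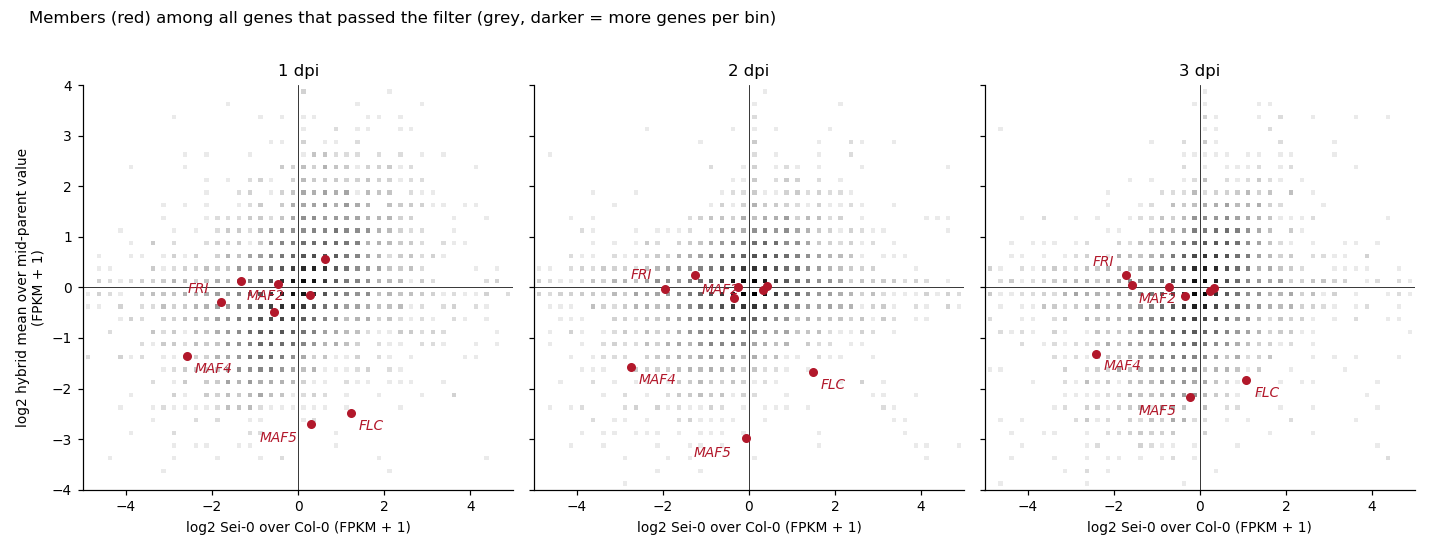
Log2 ratio of the hybrid mean over the mid-parent value (vertical axis) against log2 ratio of Sei-0 over Col-0 (horizontal axis), both on the FPKM + 1 scale, for the 9 genes (red) and all genes tested in bins (grey, darker with more genes), with 1 panel per day. *FLC* lies at the lower right (1.23 and -2.49 at 1 dpi), *MAF4* at the lower left (-2.58 and -1.36), and *MAF5* under the centre (0.31 and -2.70); 89, 73 and 85 genes fall beyond the axes at 1, 2 and 3 dpi.

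Over the 12 group values, each centred on its day, *FLC* and *MAF5* had a Pearson correlation of 0.83, and *MAF2* and *FRI*, on chromosomes 5 and 4, of 0.97. *SVP* and *SOC1* had a correlation of -0.85. The 12 points are 4 genotypes on 3 days and share their tables, so these values describe genotype differences that repeat by day. Among genes with a mean of at least 5 FPKM, those most like *FLC* were AT2G42270 (0.967), AT1G75810 (0.966) and AT1G24148 (0.965). The likeness ignores size: at 1 dpi AT2G42270 had 10.4 FPKM in Fsc and 10.5 FPKM in Fcs, against 14.3 FPKM in Sei-0 and 12.7 FPKM in Col-0, a much smaller gap than that of *FLC*. Most like *MAF5* were *CCP1* (0.986), AT1G75300 (0.982) and *ASPG1* (0.982), and most like *MAF4* were AT1G03940 (0.989), AT2G22200 (0.989) and AT5G65400 (0.979). Most like *SVP* were *AL4* (0.986), *SK20* (0.984) and *CYCD3;2* (0.984), and most like *SOC1* were *RIN4* (0.985), AT5G47690 (0.968) and AT2G45910 (0.966).

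The known regulators of *FLC* were read next, from lists drawn up from textbook knowledge with earlier results of these data known. Of 13 activators, which are partners of *FRI* and parts of chromatin complexes, 13 passed the filter on each day. Of these, 0 were past 1.5-fold above or below both parents, between the parents or between the hybrids. Of all genes tested, 3.98%, 1.83% and 4.32% lay above both parents at 1, 2 and 3 dpi, and 5.76%, 2.31% and 6.17% below. Higher in Sei-0 were 14.9%, 11.8% and 10.8%, and lower 17.9%, 14.6% and 13%. Between the hybrids 9.94%, 8.96% and 8.67% differed. Their median log2 ratio of the hybrid mean to the mid-parent value was 0.13, 0.00 and -0.04, and the most distant values at 1 dpi were those of *SUF4* (0.37), *PIE1* (0.31), *ELF7* (0.28) and *ARP6* (-0.28). The low *FLC* of the hybrids came with levels of these activators near the mid-parent value. The part of the activators in the *FLC* values was not tested.

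Of 9 repressors of *FLC* in and around the autonomous pathway, 1 was above both parents on each day. Of all genes tested, 3.98%, 1.83% and 4.32% were at 1, 2 and 3 dpi. The 1 gene was *GRP7* (AT2G21660), an RNA-binding protein under clock control that lowers *FLC*. *GRP7* had 2342 FPKM in Fsc and 872 FPKM in Fcs at 1 dpi, against 77.2 FPKM in Sei-0 and 29.1 FPKM in Col-0. The table of 2 dpi gave 8786 FPKM in Fsc and 5191 FPKM in Fcs, against 1877 FPKM in Sei-0 and 171 FPKM in Col-0. The 3 dpi values were 10102 FPKM in Fsc and 5206 FPKM in Fcs, against 1466 FPKM in Sei-0 and 109 FPKM in Col-0. The hybrids were highest in *GRP7* and lowest in *FLC* on each day, but of the parents Sei-0 had more of both *GRP7* and *FLC*; the part of *GRP7* in the *FLC* values was not tested. The other 8 repressors were counted neither above nor below both parents, nor as different between the parents or between the hybrids. Of all genes tested, 5.76%, 2.31% and 6.17% lay below both parents. Higher in Sei-0 were 14.9%, 11.8% and 10.8%, and lower 17.9%, 14.6% and 13%. Between the hybrids 9.94%, 8.96% and 8.67% differed. The most distant log2 ratios to the mid-parent value after *GRP7* were *FVE* at 0.49 and *FY* at 0.41 at 3 dpi and *FPA* at 0.39 at 1 dpi. The list's median was 0.10, 0.09 and 0.09.

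Of 8 vernalization and Polycomb genes, 7 passed the filter, and *VIN3*, which cold induces, stayed at or under 0.131 FPKM in all groups. None of the 7 was above both parents, against 3.98%, 1.83% and 4.32% of all genes tested at 1, 2 and 3 dpi. None was below both, against 5.76%, 2.31% and 6.17%. The median log2 ratio of the hybrid mean to the mid-parent value over the 7 was -0.09, -0.09 and -0.04. Lower in Sei-0 was 1 of the 7 on each day, against 17.9%, 14.6% and 13% of all genes tested. It was *VRN2*, a Polycomb subunit that keeps *FLC* silent after cold. *VRN2* had 10.1 FPKM in Fsc and 11.6 FPKM in Fcs at 1 dpi, against 4.45 FPKM in Sei-0 and 13.8 FPKM in Col-0. Higher in Sei-0 were 1, 0 and 0 of the 7, against 14.9%, 11.8% and 10.8% of all genes. The 1 gene was *VRN1*, a DNA-binding protein of the same response. *VRN1* had 14.7 FPKM in Fsc and 15.4 FPKM in Fcs at 1 dpi, against 21.1 FPKM in Sei-0 and 13.4 FPKM in Col-0. The most distant hybrid value was that of *VEL1* at 3 dpi, at -0.64.

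**Figure D5:**
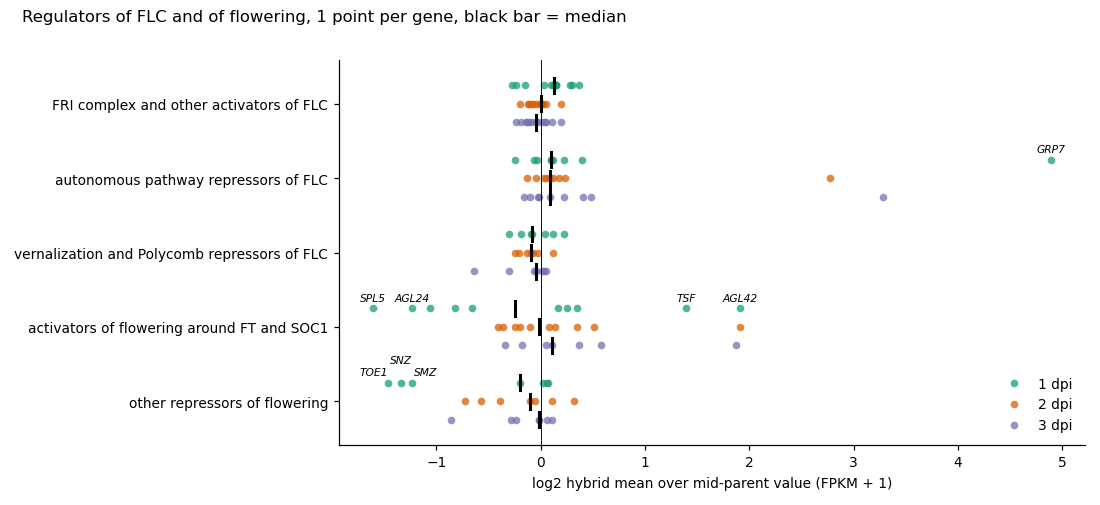
Log2 ratio of the hybrid mean over the mid-parent value on the FPKM + 1 scale (horizontal axis) for each gene that passed the filter in 5 lists of regulators (vertical axis), 1 point per gene and day, with a black bar at the list's median. *GRP7* lies alone at the right (4.89, 2.77 and 3.28), the activators of *FLC* stay near 0 (medians 0.13, 0.00 and -0.04), and the genes of flowering itself spread to both sides at 1 dpi.

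The genes that act on flowering beside *FT* and *SOC1* spread to both sides. Of 15 activators, 10, 10 and 7 passed the filter at 1, 2 and 3 dpi. Above both parents were 2, 1 and 1 of them, against 3.98%, 1.83% and 4.32% of all genes tested. Below both parents were 1, 0 and 0, against 5.76%, 2.31% and 6.17%. *AGL42*, a MADS-box relative of *SOC1*, was above both parents on each day, with 7.88 FPKM in Fsc and 6.68 FPKM in Fcs at 1 dpi, against 1.65 FPKM in Sei-0 and 0.759 FPKM in Col-0. *TSF*, the closest relative of *FT*, was above both parents at 1 dpi. It had 2.28 FPKM in Fsc and 2.08 FPKM in Fcs, against 0.385 FPKM in Sei-0 and 0.032 FPKM in Col-0. Only through its hybrid values did *TSF* pass the filter on that day. At 2 dpi it had 0.792 FPKM in Fsc and 3.18 FPKM in Fcs, against 0.586 FPKM in Sei-0 and 1.59 FPKM in Col-0. At 3 dpi it did not pass the filter. *AGL24*, a partner of *SOC1*, was below both parents at 1 dpi, with 9.56 FPKM in Fsc and 9.52 FPKM in Fcs, against 20.9 FPKM in Sei-0 and 26.6 FPKM in Col-0. *SPL5*, a target of the ageing pathway, had a log2 ratio of -1.61 to the mid-parent value at 1 dpi. The median of the list was -0.24, -0.01 and 0.11.

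Of 9 other repressors of flowering, 7 passed the filter. Above both parents were 0 of them on each day, against 3.98%, 1.83% and 4.32% of all genes tested at 1, 2 and 3 dpi. Below both parents were 3, 0 and 1, against 5.76%, 2.31% and 6.17%. At 1 dpi the 3 were the AP2-type repressors *TOE1*, *SNZ* and *SMZ*. *TOE1* had 35.2 FPKM in Fsc and 30.3 FPKM in Fcs, against 76.6 FPKM in Sei-0 and 108 FPKM in Col-0. *SNZ* had 26.5 FPKM in Fsc and 23.01 FPKM in Fcs, against 44.9 FPKM in Sei-0 and 83.2 FPKM in Col-0. *SMZ* was also the gene below both parents at 3 dpi. *TEM2*, a repressor of *FT*, was past 1.5-fold between the hybrids on all days, with 17.7 FPKM in Fsc and 34.7 FPKM in Fcs at 1 dpi, against 30.8 FPKM in Sei-0 and 19.5 FPKM in Col-0. The median of this list was -0.20, -0.10 and -0.01.

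Markers of leaf cell types moved with genotype on some days. The summed level of 3 mesophyll genes at 1 dpi was 7774.5 FPKM in Fsc and 5345 in Fcs, against 10773.5 in Sei-0 and 20561 in Col-0, and at 3 dpi 14869.8 in Fsc and 12515 in Fcs, against 8714 in Sei-0 and 10015 in Col-0. Most of this sum was *RBCS1A*. At 1 dpi all 3 genes were highest in Col-0, next in Sei-0 and lowest in the hybrids. Below both parents on that day were 2 of the 3, against 5.76% of all genes tested: *CA1* and *LHCB2.1*, a light-harvesting protein. *LHCB2.1* had 232 FPKM in Fsc and 359 FPKM in Fcs, against 540 FPKM in Sei-0 and 2233 FPKM in Col-0. At 3 dpi *RBCS1A* and *CA1* were higher in both hybrids than in both parents. *LHCB2.1* then had 128 FPKM in Fsc and 632 FPKM in Fcs, against 508 FPKM in Sei-0 and 1388 FPKM in Col-0. The mesophyll genes thus shared no order of genotypes on that day. Of 3 guard cell genes, 1 was below both parents at 3 dpi, against 6.17% of all genes tested. It was *KAT1*, with 14.7 FPKM in Fsc and 16.9 FPKM in Fcs, against 34.6 FPKM in Sei-0 and 38.0 FPKM in Col-0. At 1 dpi *KAT1* was higher in both hybrids than in both parents. *FAMA*, of the same list, was lower in Sei-0 at 1 dpi, as were 17.9% of all genes. The part of these markers in the levels of *FLC* and *MAF5* was not tested. Genes of companion cells, where *FT* is made, were 3 in number and summed at 1 dpi to 205 FPKM in Fsc and 169 FPKM in Fcs, against 240 FPKM in Sei-0 and 153 FPKM in Col-0. The 5 flower organ genes summed to at most 1.09 FPKM, and of the 3 root genes *RHD6* was listed at 0 in all groups while *SCR* and *PYK10* passed the filter. *SCR*, which leaves also express, had 9.46 to 15.5 FPKM, and *PYK10* had 0.841 to 23.9 FPKM and was below both parents in both hybrids at 2 and 3 dpi.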

How the data were processed

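mRNA-seq was made from 36 libraries, 3 for each of 12 groups of 4 genotypes and 3 days. By the study's methods, the authors removed adapters and low-quality reads, aligned the reads to TAIR10 with TopHat (the sample labels name Bowtie), and ran Cufflinks, Cuffmerge and Cuffdiff with a Poisson model; versions are not given in the sources used here. The deposited tables, 1 per day, hold FPKM from the authors' Cuffdiff, a pooled value for every group, and beside it their 6 comparisons with a log2 fold change, a test statistic, a p-value, a q-value and a significance flag, which hold the authors' own findings and were not used. The kit and counting are not stated to keep strand. The tables hold neither counts nor the depth per library. The study gives mapped amounts per library and correlations between the libraries of a group elsewhere. These were not used here, and no interval is given. The summed FPKM per group was 935587 to 1.19e+06, and the 279 organelle genes are all listed at 0.

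Ratios were taken from log2(FPKM + 1), with a call at 1.5-fold, over genes with a mean of at least 1 FPKM on a day. With 1 value per group there is no test. The 10 genes, the lists and the motifs were chosen with earlier results of these data known. All 10 genes are named, with 2 neighbours on each side of *FLC* and of *MAF2* to *MAF5*, the 3 genes most like 5 of them by Pearson correlation of day-centred values, and from each list counts and at most the 4 members farthest from the mid-parent value; *VIN3* was named after its values were seen. Alternatives were a fold of 2, a pseudocount of 0.1, no filter or a mean of at least 5 FPKM, the mid-parent value as reference, and scaling to the same median.

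Gene symbols and sequences came from RefSeq TAIR10.1, which matched 32810 of the 33557 identifiers; 50.2% of these genes share their start or end exactly with the tables. Coding sequences were compared by global alignment, and motifs searched on both strands of the 250 bases before each start. Python 3.11.15, NumPy 2.4.6, pandas 2.3.3 and Matplotlib 3.10.9 were used.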

Additional observations from a re-analysis of the deposited data

Results flagged for a closer look

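The order of the reciprocal hybrids turned round between days for *FLC* and *MAF5*. The log2 ratio of Fsc over Fcs on the FPKM + 1 scale was -0.36 for *FLC* at 1 dpi, 1.13 at 2 dpi and -1.02 at 3 dpi. For *MAF5* it was 0.68 at 1 dpi, -0.76 at 2 dpi and -0.92 at 3 dpi. In each gene the ratio passed 1.5-fold in opposite directions on different days. The difference between days was not tested, since each group has 1 pooled value and the days were normalized as separate tables. All of these hybrid values lie between 0.986 and 5.37 FPKM.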

How the results depend on the processing

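Scaling all groups to the same median moved no group by more than 0.033 on the log2 scale. That scaling and dropping the filter each left the 15 counts of genes within 1.5 times their values. No ratio of a counted gene turned its direction under any alternative. Shares of all genes were computed only for 1.5-fold with a pseudocount of 1 and a mean of at least 1 FPKM. The counts below stand without such a share, so whether all genes moved alike is not known. With the mid-parent value as reference, 3 genes (*FLC*, *MAF4* and *MAF5*) in place of 1 were below it in both hybrids at 2 dpi. With a fold of 2, the count below both parents at 3 dpi was 1 (*MAF5*) in place of 2, the count higher in Sei-0 at 1 dpi was 1 (*FLC*) in place of 2, and the counts that differed between Fsc and Fcs were 0, 1 and 1 at 1, 2 and 3 dpi in place of 1, 2 and 2, with *FLC* as the gene at 2 and 3 dpi. With a mean of at least 5 FPKM, the counts lower in Sei-0 were 1, 1 and 2 (*MAF2*, and *MAF3* at 3 dpi) in place of 3, 3 and 4, because *FRI* and *MAF4* were no longer tested. With a pseudocount of 0.1, 2 genes (*MAF4* and *MAF5*) in place of 1 differed between Fsc and Fcs at 1 dpi; *MAF4* then had a log2 ratio of 0.69. The same pseudocount took 4 ratios of *FT* past 1.5-fold, at levels of at most 0.488 FPKM. Leaving out a replicate was not possible, and no paired analysis was possible because the tables hold 1 pooled value per group. Without counts, what depth limits could not be measured; the values under 1 FPKM, such as *MAF4*, *FRI* and *FT* in Sei-0, are those where the pseudocount weighs most.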
